A study of Homo sapiens with 6 samples.

Results

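Messenger RNA splicing depends on proteins that mark where introns begin and end. SR proteins carry a domain rich in arginine and serine and mostly help the splicing machinery to use an exon, while many hnRNPs coat the transcript and often keep sites from being used. The U2 snRNP recognises the branch point through its SF3a and SF3b subunits, after U2AF has bound the polypyrimidine tract and the AG at the intron's end. Many of these genes control their own RNA by splicing in exons that send the transcript to decay.

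Transcripts of these factors were followed in SK-MES-1 cells, a human line established from a squamous carcinoma of the lung. The exosome group was cultured for 72 h in complete medium with 20 µg/ml of exosomes, which are small membrane vesicles, released by lung fibroblasts of IPF (idiopathic pulmonary fibrosis, in which the lung scars). The control group was kept in parallel without added exosomes. Each group had 3 RNA-seq libraries, all cells were labelled wild type, and no library here came from cells given vesicles of another source, so any effect of vesicles as such cannot be told apart from that of IPF fibroblast vesicles. The members were all genes of the deposited table whose symbol begins with SRSF, HNRNP, SF3A or SF3B, or is U2AF1, U2AF2, TRA2A or TRA2B, which gave 45 of 15761 genes. They were 12 SR proteins, the 2 Tra2 proteins, 20 hnRNPs, 9 SF3a and SF3b subunits and the 2 subunits of U2AF, all annotated in the table as protein coding. Genes of these families that the table does not list were not analysed here.

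Library totals were 13038688 to 13334508 counts in the exosome group and 11346639 to 12924251 in the control group, with 14294 to 14540 genes detected per library. Control library 3 and exosome library 3 lay farthest from the other libraries of their groups. Among markers of the labelled cell type, the simple keratin KRT8 (1890 ± 76.2 normalised CPM with exosomes, 2410 ± 112 in control), KRT18 and CDH1 (20.1 ± 1.17 CPM with exosomes, 53.0 ± 2.71 CPM in control, adjusted p = 7.89e-10) were present, whereas the squamous keratins KRT5, KRT6A and KRT14 averaged under 0.3 CPM in both groups. KRT17 averaged 1.08 ± 0.113 CPM with exosomes and 3.57 ± 0.791 CPM in control (adjusted p = 9.55e-05). The 10 epithelial markers found, which take in KRT8, KRT18 and CDH1, summed to 2700 to 2846 CPM with exosomes and 3352 to 3694 CPM in control. KRT8 made up most of these sums, so they do not measure squamous identity. The 7 fibroblast markers found summed to 48.3 to 52.4 CPM with exosomes and 107 to 116 CPM in control, with COL3A1, PDGFRA, THY1 and FAP at or near 0 in every library. The 13 mitochondrial transcripts summed to 57602 to 69168 CPM with exosomes and 65642 to 95482 CPM in control. The part of these differences in the results that follow was not tested, and in bulk RNA a change in the make-up of the culture and a change in RNA per cell cannot be told apart.

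With exosomes, most of the splicing factor transcripts that changed were higher, by modest factors. The rises included the hnRNPs HNRNPAB, HNRNPA2B1, HNRNPD and HNRNPA0, the SR proteins SRSF9, SRSF4 and SRSF7, the SF3a subunit SF3A2 and the large U2AF subunit U2AF2. The only members that fell were the SR proteins SRSF1 and SRSF10, HNRNPLL and SF3B1, the largest protein of SF3b, and none of the 4 passed once a trend with GC content, described after the counts, was removed (SRSF10, HNRNPLL and SF3B1 then stood above 0). Together the 45 genes took 0.933 to 0.999% of all reads in the exosome libraries and 0.738 to 0.780% in the control libraries. Their summed level was 9581, 9629 and 9219 normalised CPM with exosomes, against 8114, 7982 and 7511 CPM in control (CPM, counts scaled to a common library size with TMM factors, is the unit of levels throughout unless FPKM is named). The ranges did not overlap.

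Of the 45 members, 44 had enough reads to be tested, and SRSF12, with 2 to 8 reads per library, did not. In edgeR's quasi-likelihood test with Benjamini-Hochberg adjustment over 12449 genes, 25 members passed an adjusted p of 0.05 as higher with exosomes and 4 as lower, while 15 did not pass. Among all tested genes 25.6% were higher and 26.1% lower, against 56.8% and 9.09% of the members. The median log2 fold change of exosome over control was 0.27 over the members and -0.0042 over all tested genes. All 3 exosome libraries lay above all 3 control libraries for 30 members and below them for 7, where 29.2% and 30.2% of all tested genes did so. The rises were small for most: 8 of the 25 reached 1.5-fold and 3 reached 2-fold. Scaling by library totals alone gave 30 higher and 1 lower.

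**Figure D1:**
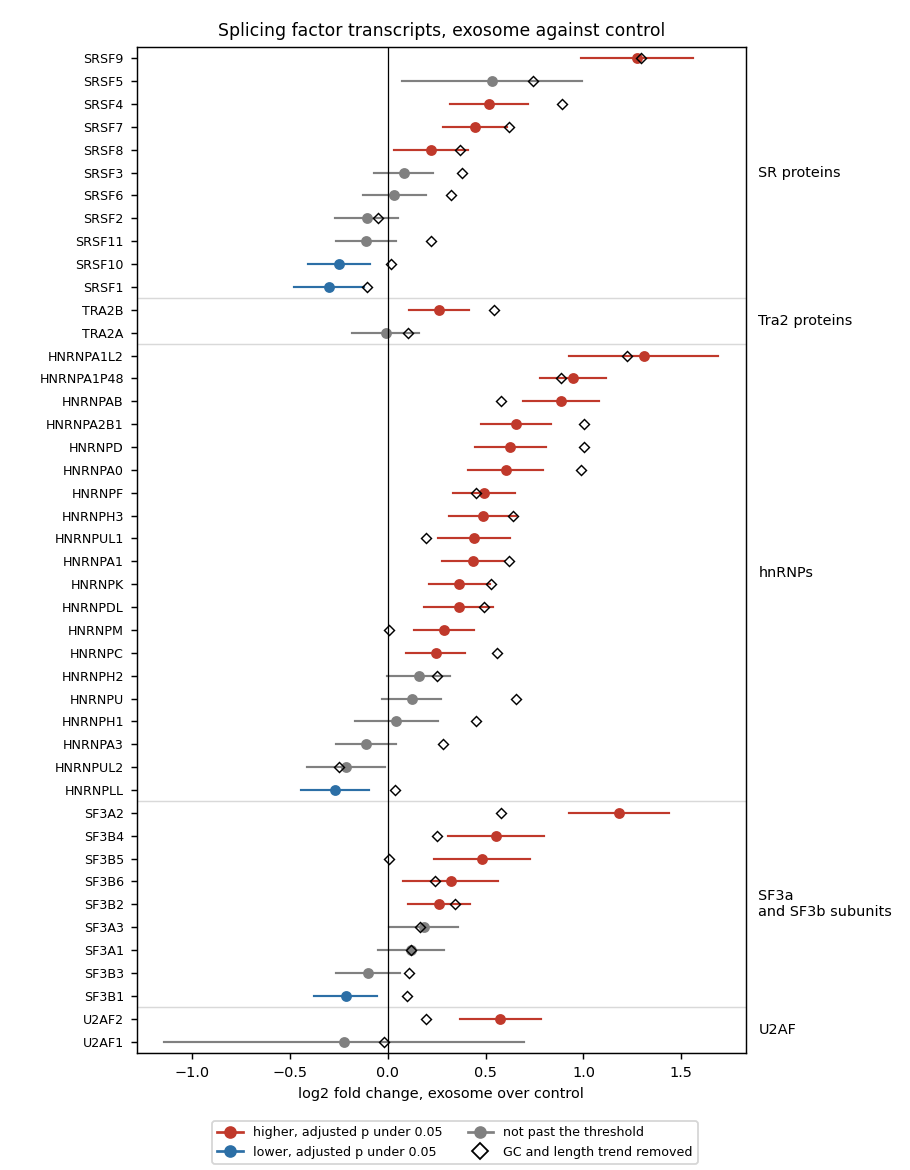
Log2 fold change of exosome over control (horizontal axis) for the 44 tested members, grouped by class; filled points and lines are the estimate and its 95% confidence interval, coloured by call, and open diamonds are the estimate after the GC and length trend was removed. Most points lie right of 0, from -0.30 for SRSF1 to 1.31 for HNRNPA1L2. Of the called members, the diamonds of SRSF10, HNRNPLL and SF3B1 lie on the other side of 0 from their points. So do those of SF3B3, HNRNPA3, SRSF11 and TRA2A, which were not called.

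One property of these libraries bears on every member. Over all tested genes the log2 fold change ran with the GC content of the longest annotated transcript (Spearman 0.62 across 12449 genes, which are not independent replicates) and against its length (Spearman -0.39). The members are mostly poor in GC, with a median of 42.4% against 48.4% for all tested genes. A second fit therefore removed the trend with GC content and length from each library before the test, and is called the corrected fit here. It also removes any difference between the groups that follows GC content or length. Whether that trend is technical or part of the response to exosomes was not tested. In it 30 members were higher, 1 was lower and the median log2 fold change was 0.36. Over all tested genes it called 18.2% higher and 17.3% lower. Of the members, 23 were higher in both fits and none was lower in both, so each fall of a member is given with its corrected value.

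Members and other genes of low GC content were also counted side by side. A limit of 45% GC, chosen after the data were seen, took in 28 members and 4701 tested genes. Of these 28 members 14 were higher and 4 (14.3%) lower, whereas of all tested genes under the limit 4.47% were higher and 51.0% lower. The medians of the log2 fold change were 0.23 for the members and -0.29 for the genes. HNRNPD, whose longest transcript has the lowest GC content of all members at 36.1%, was among the members with clear rises. Its longest coding transcript has 42.0% GC. Of the 14 higher members, SRSF9 and SRSF4 were under the limit by the longest transcript alone. Their longest coding transcripts have 52.3% and 52.2% GC.

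**Figure D2:**
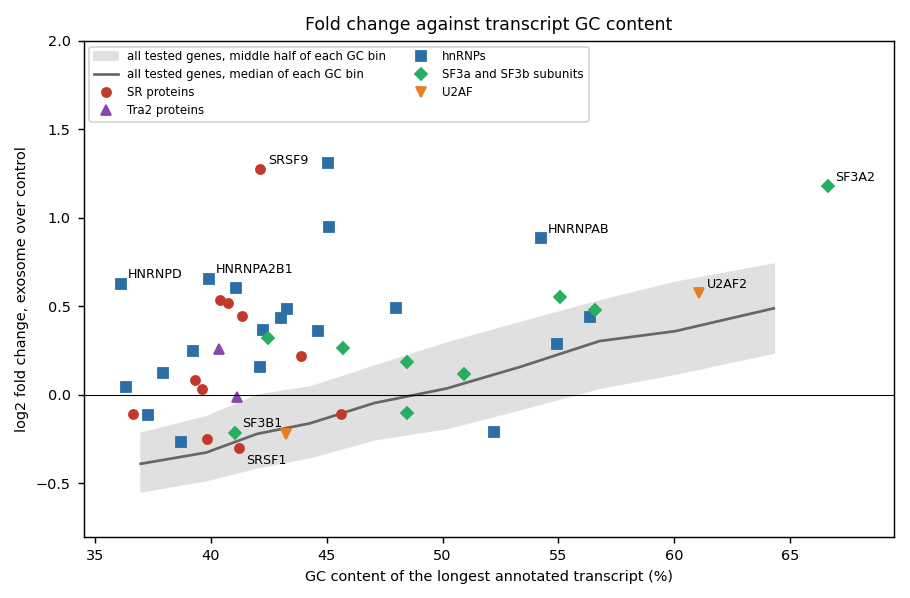
Log2 fold change of exosome over control (vertical axis) against the GC content of the longest annotated transcript in percent (horizontal axis); points are the 44 tested members by class, the line is the median of all tested genes in 10 bins of GC content and the band their middle 50%. Below 45% GC the line runs from -0.39 to -0.16 while most members lie above it, and SRSF1 and SF3B1 lie within the band.

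Promoters are shown for some members at the extremes of the SR protein, hnRNP and SF3 classes. SRSF9 and SRSF1 had the largest called rise and fall of the SR proteins. HNRNPAB and HNRNPLL had those of the hnRNPs, apart from 2 near copies of HNRNPA1 described later. SF3A2 had the largest rise of SF3. SF3B1, the only called fall of SF3, and the Tra2 and U2AF classes are not shown. The windows are RefSeq sequences on GRCh38.p14, read 5′ to 3′ on the gene's strand, from 250 bases before to 50 bases after the annotated start. SRSF9 is at chr12:120469699-120469998 on the minus strand, SRSF1 at chr17:58007197-58007496 on the minus strand and HNRNPAB at chr5:178204283-178204582 on the plus strand. HNRNPLL is at chr2:38602879-38603178 on the minus strand and SF3A2 at chr19:2236574-2236873 on the plus strand. Capitals mark every match to 8 short motifs, searched on both strands. The TATA box was searched as TATAAA and the CCAAT box by its name. The GC box, which Sp1-type factors bind, was searched as GGGCGG. The core of ETS-type sites was searched as CCGGAAG. For the factor NRF1 the letters were GCATGCGC and for the factor YY1 they were ATGGCGGC. The E-box was searched as CACGTG, and the cAMP response element was searched as TGACGTCA. No 2 of these motifs overlap in the windows shown.
SRSF9: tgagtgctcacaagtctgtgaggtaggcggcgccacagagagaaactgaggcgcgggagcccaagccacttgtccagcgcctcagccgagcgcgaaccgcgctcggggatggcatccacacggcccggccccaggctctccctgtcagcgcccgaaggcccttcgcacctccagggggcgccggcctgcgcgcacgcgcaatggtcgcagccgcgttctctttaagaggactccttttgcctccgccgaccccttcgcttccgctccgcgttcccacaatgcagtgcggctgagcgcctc
SRSF1: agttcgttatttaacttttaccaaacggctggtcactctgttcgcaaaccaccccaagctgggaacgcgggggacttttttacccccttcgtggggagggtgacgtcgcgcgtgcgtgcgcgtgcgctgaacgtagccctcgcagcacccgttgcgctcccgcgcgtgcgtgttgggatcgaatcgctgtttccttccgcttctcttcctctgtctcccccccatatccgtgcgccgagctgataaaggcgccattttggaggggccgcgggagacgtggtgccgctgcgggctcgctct
HNRNPAB: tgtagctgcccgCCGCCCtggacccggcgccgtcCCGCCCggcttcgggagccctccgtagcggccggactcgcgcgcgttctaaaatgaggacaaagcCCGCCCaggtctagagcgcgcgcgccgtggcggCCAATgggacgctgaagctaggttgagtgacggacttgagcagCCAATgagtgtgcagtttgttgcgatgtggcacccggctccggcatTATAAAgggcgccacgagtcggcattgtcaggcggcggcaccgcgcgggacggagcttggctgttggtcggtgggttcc
HNRNPLL: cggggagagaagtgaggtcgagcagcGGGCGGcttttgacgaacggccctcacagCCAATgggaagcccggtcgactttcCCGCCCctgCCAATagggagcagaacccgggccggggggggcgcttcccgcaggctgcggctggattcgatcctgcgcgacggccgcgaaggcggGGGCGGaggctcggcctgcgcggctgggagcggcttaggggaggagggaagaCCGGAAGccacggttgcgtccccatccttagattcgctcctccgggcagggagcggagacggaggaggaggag
SF3A2: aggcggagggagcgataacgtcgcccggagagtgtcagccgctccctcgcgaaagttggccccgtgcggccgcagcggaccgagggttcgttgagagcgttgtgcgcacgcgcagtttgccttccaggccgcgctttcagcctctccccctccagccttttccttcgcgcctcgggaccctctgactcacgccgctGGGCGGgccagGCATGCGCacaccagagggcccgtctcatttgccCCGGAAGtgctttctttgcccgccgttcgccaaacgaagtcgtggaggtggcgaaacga
The windows of SRSF9 and SRSF1 held none of these motifs. HNRNPAB held a TATA box, 2 CCAAT boxes and 3 GC boxes. HNRNPLL held 2 CCAAT boxes, 3 GC boxes and an ETS core, and SF3A2 held 1 GC box, 1 ETS core and 1 NRF1 core. A match describes letters and not a bound site.

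A RefSeq promoter was found for 40 of the 45 members. Their median GC content was 63.8%, against 65.3% over the promoters of 9828 tested genes. The GC box stood in 72.5% of the members' promoters, in 70.0% of those of tested genes and in 44.6% of all 27305. The ETS core stood in 30.0%, 19.1% and 10.7% of the same sets, among them the promoters of HNRNPD, HNRNPF, HNRNPLL, SF3A2, SRSF4 and U2AF2, which include rises and a fall. The E-box stood in 20.0%, 9.89% and 7.43%, the TATA box in 12.5%, 5.35% and 12.0%, and the CCAAT box in 35.0%, 36.1% and 35.7%. The NRF1 core stood in 7.5%, 5.49% and 3.27%. The YY1 core was in 2 of the 40 members' promoters, in 6.23% of those of tested genes and in 3.21% of all, and the cAMP response element was in none of the 40, in 3.12% and in 1.98%.

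Among the 11 tested SR proteins, 4 rose (36.4%), 2 fell (18.2%) and 5 did not pass, with a median log2 fold change of 0.08. Over all tested genes 25.6% were higher and 26.1% lower, and the difference between these shares was not tested. SRSF9, an SR protein with a short arginine-serine domain, had the largest rise of the class. Its level was 36.8, 33.4 and 25.2 CPM with exosomes, against 11.7, 14.2 and 13.6 CPM in control. Every exosome library lay above every control library by a wide margin. The log2 fold change was 1.27 ± 0.14 (SE; 2.42-fold, adjusted p = 3.13e-07). In the corrected fit it was 1.29 with the longest transcript and 0.94 with the longest coding transcript. SRSF9 spans chromosome 12 from 120461668 to 120469793 on GRCh38 and overlaps GATC on the opposite strand, and the use of strand in counting was not given in the sources used here.

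SRSF4 and SRSF7 rose by less. SRSF4, one of the largest SR proteins, had 68.4, 63.5 and 60.4 CPM with exosomes, against 47.6, 47.5 and 39.3 CPM in control (log2 fold change 0.52 ± 0.10, adjusted p = 0.000131). SRSF7, which carries a zinc knuckle beside its RNA-binding domain and also serves mRNA export, had 173, 183 and 166 CPM with exosomes, against 128, 137 and 117 CPM in control (0.45 ± 0.08, adjusted p = 8.7e-05). The groups did not overlap for either gene, and both calls held in the corrected fit. SRSF8, a close relative of SRSF2, passed only narrowly at 0.22 ± 0.09 (adjusted p = 0.046). That call was lost without any single exosome library or without control library 2, with adjusted p-values up to 0.210.

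SRSF1, the founding SR protein and a known splicing oncogene, had 80.2, 68.4 and 76.1 CPM with exosomes, against 85.6, 92.1 and 98.9 CPM in control. SRSF10, an SR protein that acts as a repressor when dephosphorylated, had 132, 152 and 146 CPM with exosomes, against 168, 168 and 175 CPM in control. For both, all exosome libraries lay under all control libraries. The log2 fold changes were -0.30 ± 0.09 for SRSF1 (adjusted p = 0.00632) and -0.25 ± 0.08 for SRSF10 (adjusted p = 0.0102). Neither fall held in the corrected fit, where SRSF1 stood at -0.11 (adjusted p = 0.306) and SRSF10 at 0.02 (adjusted p = 0.826). Without exosome library 2 the SRSF1 call was lost (adjusted p = 0.0673), and without exosome library 1 that of SRSF10 (adjusted p = 0.0692). SRSF1 overlaps AC015813.2, annotated as protein coding, on the same strand. The treatment of reads that match both was not given in the sources used here.

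Among the SR proteins that did not pass, SRSF5 had the highest fold change. It had 181, 193 and 155 CPM with exosomes, against 144, 133 and 88.2 CPM in control, a log2 fold change of 0.54 ± 0.19 with an adjusted p of 0.055. The groups did not overlap, and the control libraries were spread widely. It passed without control library 1 or without control library 3. SRSF3, the smallest SR protein, SRSF6, SRSF2 and SRSF11 stood between -0.11 and 0.08 in log2 fold change. In the corrected fit SRSF3 (0.38), SRSF6 (0.33) and SRSF11 (0.22) passed as higher, which made 7 SR proteins higher and 0 lower there. Over all tested genes that fit called 18.2% higher and 17.3% lower. The summed level of the class was 1544 to 1618 CPM with exosomes and 1419 to 1521 CPM in control.

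Of the 2 Tra2 proteins, activators that bind purine-rich exonic enhancers, TRA2B rose and TRA2A did not pass. TRA2B had 158, 162 and 150 CPM with exosomes, against 131, 133 and 128 CPM in control (0.26 ± 0.07, adjusted p = 0.00561). The groups were apart, and the corrected log2 fold change was larger at 0.54. TRA2A stood at -0.01, with a 95% interval from -0.18 to 0.16. A test of the difference between the 2 genes was not made.

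The hnRNPs gave the broadest rise. Of 20 tested, 14 were higher (70.0%), 1 was lower (5.0%) and 5 did not pass, with a median log2 fold change of 0.40. Over all tested genes the shares were 25.6% and 26.1%. In the corrected fit 17 were higher and 1 lower, with a median of 0.54. Their summed level was 5722, 5739 and 5387 CPM with exosomes, against 4400, 4353 and 4119 CPM in control. All exosome sums lay above all control sums, and the hnRNPs held more of the members' reads than all the other classes together in both groups.

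In the A/B group, HNRNPAB, HNRNPA2B1, HNRNPA1 and HNRNPA0 rose and HNRNPA3 did not pass. HNRNPAB had 247, 246 and 193 CPM with exosomes, against 126, 114 and 132 CPM in control (0.89 ± 0.09, adjusted p = 3.14e-07). HNRNPA2B1, which binds exonic silencers and also sorts RNA for export in vesicles, had 958, 992 and 875 CPM with exosomes, against 637, 638 and 520 CPM in control (0.65 ± 0.09, adjusted p = 3.06e-06). HNRNPA1, the classical antagonist of SRSF1 in splice site choice, had 346, 352 and 316 CPM with exosomes, against 255, 256 and 238 CPM in control (0.44 ± 0.08, adjusted p = 6.82e-05). No control library reached the lowest exosome library for any of them. HNRNPA0, which binds AU-rich elements, had 203, 186 and 150 CPM with exosomes, against 115, 120 and 120 CPM in control (0.60 ± 0.09, adjusted p = 1.97e-05). The corrected log2 fold changes were 0.58 for HNRNPAB, 1.001 for HNRNPA2B1, 0.62 for HNRNPA1 and 0.99 for HNRNPA0. HNRNPA3 of the same group did not pass at -0.11 (adjusted p = 0.219), and passed at 0.28 in the corrected fit. HNRNPA2B1 spans chromosome 7 from 26173057 to 26201529 and overlaps CBX3 and NFE2L3 on the opposite strand, and HNRNPAB spans chromosome 5 from 178204507 to 178211163 and overlaps PHYKPL.

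Both members that are near-identical copies of HNRNPA1 had large fold changes and uncertain reads. HNRNPA1L2, on chromosome 13, had 17.5, 18.0 and 14.4 CPM with exosomes, against 7.68, 8.17 and 4.41 CPM in control (1.31 ± 0.18, adjusted p = 8.4e-06). HNRNPA1P48, on chromosome 16 and named as a pseudogene, had 211, 212 and 189 CPM with exosomes, against 114, 104 and 99.4 CPM in control (0.95 ± 0.08, adjusted p = 1.04e-08). The groups were apart for both, and both stayed higher in the corrected fit, at 1.22 and 0.88. Reads of HNRNPA1 and its copies could be split among them by the authors' counting. Without both copies 23 of 42 tested members were higher and 4 lower, with a median log2 fold change of 0.26.

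HNRNPD, also known as AUF1 and a regulator of AU-rich mRNAs, had 231, 214 and 196 CPM with exosomes, against 154, 139 and 122 CPM in control (0.63 ± 0.09, adjusted p = 6.98e-06). Its paralogue and neighbour HNRNPDL rose by 0.36 ± 0.08 on the log2 scale (adjusted p = 0.00112). All exosome libraries lay above all control libraries for both genes. The G-run binders HNRNPF (0.49 ± 0.08, adjusted p = 2.09e-05) and HNRNPH3 (0.49 ± 0.08, adjusted p = 5.24e-05) rose, while HNRNPH1 (0.05) and HNRNPH2 (0.16) did not pass. HNRNPH1 was listed at a low level, with means of 35.2 CPM with exosomes and 34.2 CPM in control. HNRNPF had 434 CPM and 309 CPM. HNRNPH1 passed as higher in the corrected fit with the longest transcript (0.45) and not with the longest coding transcript (-0.03).

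HNRNPK, which binds C-rich RNA, rose by 0.37 ± 0.08 (adjusted p = 0.000389) and HNRNPC, which binds U-tracts and can keep U2AF2 off them, by 0.25 ± 0.07 (adjusted p = 0.00705). HNRNPUL1 rose by 0.44 ± 0.09 (adjusted p = 0.000319). The 3 genes also passed in the corrected fit, at 0.53 for HNRNPK, 0.56 for HNRNPC and 0.19 for HNRNPUL1. HNRNPM, which binds GU-rich sites and is known in epithelial-mesenchymal splicing, had 437, 403 and 417 CPM with exosomes, against 341, 329 and 360 CPM in control (0.29 ± 0.07, adjusted p = 0.00284). Its groups were apart. Its longest transcript has 54.9% GC, and in the corrected fit it stood at 0.01 (adjusted p = 0.956). HNRNPU, a nuclear scaffold protein, did not pass at 0.12, and stood at 0.65 in the corrected fit.

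HNRNPLL, known from CD45 splicing in lymphocytes, was the only hnRNP that fell. It had 63.6, 68.9 and 65.6 CPM with exosomes, against 74.8, 84.7 and 79.2 CPM in control (-0.27 ± 0.08, adjusted p = 0.0108). The groups were apart, but the corrected value was 0.04 (adjusted p = 0.711), and the call was lost without control library 2 (adjusted p = 0.095). HNRNPUL2 did not pass at -0.21 (adjusted p = 0.0697). It was lower in the corrected fit with the longest transcript at -0.25 (adjusted p = 0.025). With the longest coding transcript it missed the threshold (adjusted p = 0.0546). HNRNPUL2 overlaps the annotated gene HNRNPUL2-BSCL2 on the same strand, and HNRNPH2 likewise overlaps RPL36A-HNRNPH2. How reads that match both were counted was not given in the sources used here.

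**Figure D3:**
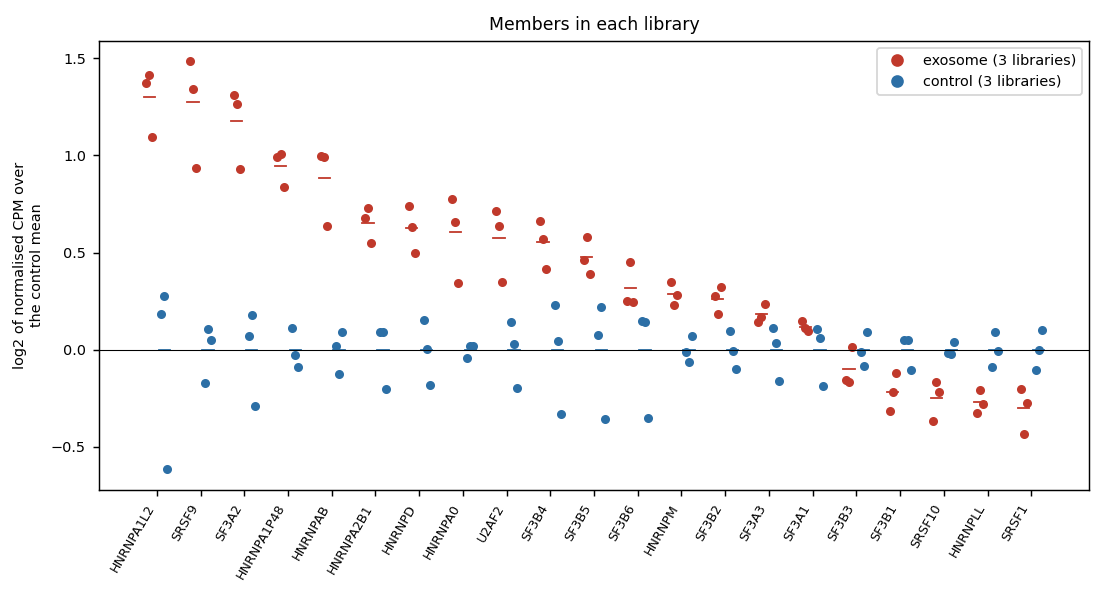
Level of the members with the largest called rises and falls, those whose call the correction ended, U2AF2 and the SF3 subunits, as log2 of normalised CPM over the mean of the control libraries (vertical axis); each point is a library, short bars are group means and the horizontal line at 0 is the control mean. The exosome points of SRSF9, SF3A2 and HNRNPAB stand clear above the control points, while those of SF3A1 and SF3B3 lie among them.

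Among the members, SF3A2 and 4 subunits of SF3b rose with exosomes, and SF3B1 was lower. Of 9 tested, 5 were higher (55.6%), 1 was lower (11.1%) and 3 did not pass, with a median log2 fold change of 0.26. The shares over all tested genes were 25.6% and 26.1%. Their summed level was 1766 to 1856 CPM with exosomes and 1632 to 1806 CPM in control, so the sums overlapped. Within SF3a, whose 3 proteins join the U2 snRNP as a unit, SF3A2 rose and the other subunits did not pass. SF3A2 had 66.4, 64.4 and 51.0 CPM with exosomes, against 28.1, 30.3 and 21.9 CPM in control (1.18 ± 0.12, 2.27-fold, adjusted p = 4.84e-07). The lowest exosome library lay well above the highest control library. SF3A2 also has the highest transcript GC content of all members, 66.6%, and its corrected log2 fold change was 0.58 (adjusted p = 2.03e-05). SF3A2 spans chromosome 19 from 2236504 to 2248679 and overlaps PLEKHJ1 on the opposite strand.

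SF3A1, the subunit that contacts the U1 snRNP, had 174, 170 and 168 CPM with exosomes, against 170, 164 and 138 CPM in control. Its groups overlapped, and the log2 fold change was 0.12 (95% interval -0.05 to 0.29). SF3A3 had 94.1, 95.8 and 100 CPM with exosomes, against 91.9, 87.4 and 76.1 CPM in control, which did not overlap. Its log2 fold change was 0.18 with an unadjusted 95% interval of 0.01 to 0.36 (adjusted p = 0.0736). It passed without control library 1, with library totals only (adjusted p = 0.0105) and in the corrected fit by coding transcripts (adjusted p = 0.0236).

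Within SF3b, 4 subunits among the members rose. PHF5A, an SF3b subunit that the symbol rule leaves out, rose too (0.61 ± 0.14, adjusted p = 0.000704). It also passed in the corrected fit (0.42, adjusted p = 0.00794), and is counted with the other U2 factors below. SF3B4, which binds the transcript upstream of the branch point, had 121, 113 and 102 CPM with exosomes, against 89.3, 78.7 and 60.7 CPM in control (0.55 ± 0.12, adjusted p = 0.000942). SF3B5, the smallest subunit, had 59.7, 64.9 and 56.8 CPM with exosomes, against 45.8, 50.5 and 33.9 CPM in control (0.48 ± 0.12, adjusted p = 0.00208). Both were apart between groups, but in the corrected fit SF3B4 kept its call at 0.25 (adjusted p = 0.0258) and SF3B5 did not (0.01, adjusted p = 0.957). SF3B2, the partner of SF3B4, had 282, 265 and 292 CPM with exosomes, against 249, 233 and 218 CPM in control (0.26 ± 0.08, adjusted p = 0.00698). It held in the corrected fit with the longest transcript (0.35) and not with the longest coding transcript (0.05, adjusted p = 0.588). SF3B6, which touches the branch point adenosine, had 105, 121 and 105 CPM with exosomes, against 98.2, 97.9 and 69.4 CPM in control (0.32 ± 0.12, adjusted p = 0.0289). Its groups and those of SF3B2 did not overlap, but the SF3B6 call was lost without any single exosome library or without control library 3, with adjusted p-values up to 0.112.

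SF3B1, the scaffold of SF3b and a frequent target of cancer mutations, had 441, 472 and 504 CPM with exosomes, against 567, 567 and 511 CPM in control. The highest exosome library lay just under the lowest control library. The log2 fold change of -0.21 ± 0.08 passed (adjusted p = 0.0252), but the call was lost without exosome library 1, exosome library 2, control library 1 or control library 2, with adjusted p-values up to 0.134. In the corrected fit the value was 0.10 (adjusted p = 0.229). SF3B3, the other large subunit, had 423, 420 and 476 CPM with exosomes, against 467, 444 and 502 CPM in control, a log2 fold change of -0.10 (95% interval -0.26 to 0.06) that overlapped between groups and stood at 0.11 in the corrected fit.

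Of the 2 subunits of U2AF, U2AF2 rose, and U2AF1 had too few reads to judge. U2AF2, which binds the polypyrimidine tract, had 271, 257 and 211 CPM with exosomes, against 182, 169 and 144 CPM in control (0.58 ± 0.10, adjusted p = 0.000104). The groups were apart, and the corrected value was 0.19 (adjusted p = 0.0213). U2AF1, which reads the AG at the end of the intron, had 15, 15 and 6 reads with exosomes, against 10, 16 and 11 reads in control. At this depth no difference was detectable (-0.22 ± 0.44, 95% interval -1.14 to 0.70). U2AF1, at chromosome 21 from 43092956 to 43107587, has a near-identical copy in the reference, U2AF1L5, from 6484623 to 6499261 on the same chromosome, which was listed with 22, 19 and 24 reads with exosomes, against 18, 24 and 18 reads in control. The level of U2AF1 is uncertain, with the treatment of reads that match both copies not given in the sources used here.

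Levels between genes were compared by the authors' FPKM, which is per transcript length (mean ± SD, n = 3, with the length behind each value not given in the sources used here). HNRNPK was the most abundant member in both groups, at 193 ± 6.72 FPKM with exosomes and 141 ± 8.22 FPKM in control. HNRNPA2B1 had 163 ± 12.5 FPKM with exosomes and 97.7 ± 10.3 FPKM in control. HNRNPM had 160 ± 6.78 FPKM with exosomes and 124 ± 6.72 FPKM in control. SF3B6 had 148 ± 13.5 FPKM with exosomes and 112 ± 19.9 FPKM in control. With exosomes these 3 did not differ beyond their spread, and in control HNRNPM stood above HNRNPA2B1 while SF3B6 overlapped both.

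The most abundant SR proteins in control were SRSF6 and SRSF3. SRSF6 had 67.7 ± 1.40 FPKM with exosomes and 62.5 ± 4.87 FPKM in control, and SRSF3 had 67.2 ± 2.02 FPKM with exosomes and 59.99 ± 2.23 FPKM in control. With exosomes SRSF7 had a higher mean than both at 71.8 ± 4.38 FPKM, against 49.7 ± 3.54 FPKM in control, with spreads that overlapped those of SRSF6 and SRSF3. SRSF9 had 27.3 ± 5.43 FPKM with exosomes, against 10.7 ± 1.13 FPKM in control, which placed it 34th and 40th of the 45 members. In control its mean lay below those of SRSF1 (28.0 FPKM), SRSF10 (27.1 FPKM) and SRSF8 (13.2 FPKM). With exosomes it lay above that of SRSF8 (16.3 FPKM). It also lay above those of SRSF1 (24.1 FPKM) and SRSF10 (24.2 FPKM), with spreads that overlapped. SF3A2, the least abundant SF3 subunit in control, had 31.8 ± 4.77 FPKM with exosomes, against 13.2 ± 2.07 FPKM in control. SF3B1 had 59.5 ± 3.39 FPKM with exosomes, against 65.3 ± 3.28 FPKM in control, and its place among the members was 17th with exosomes and 9th in control.

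**Figure D4:**
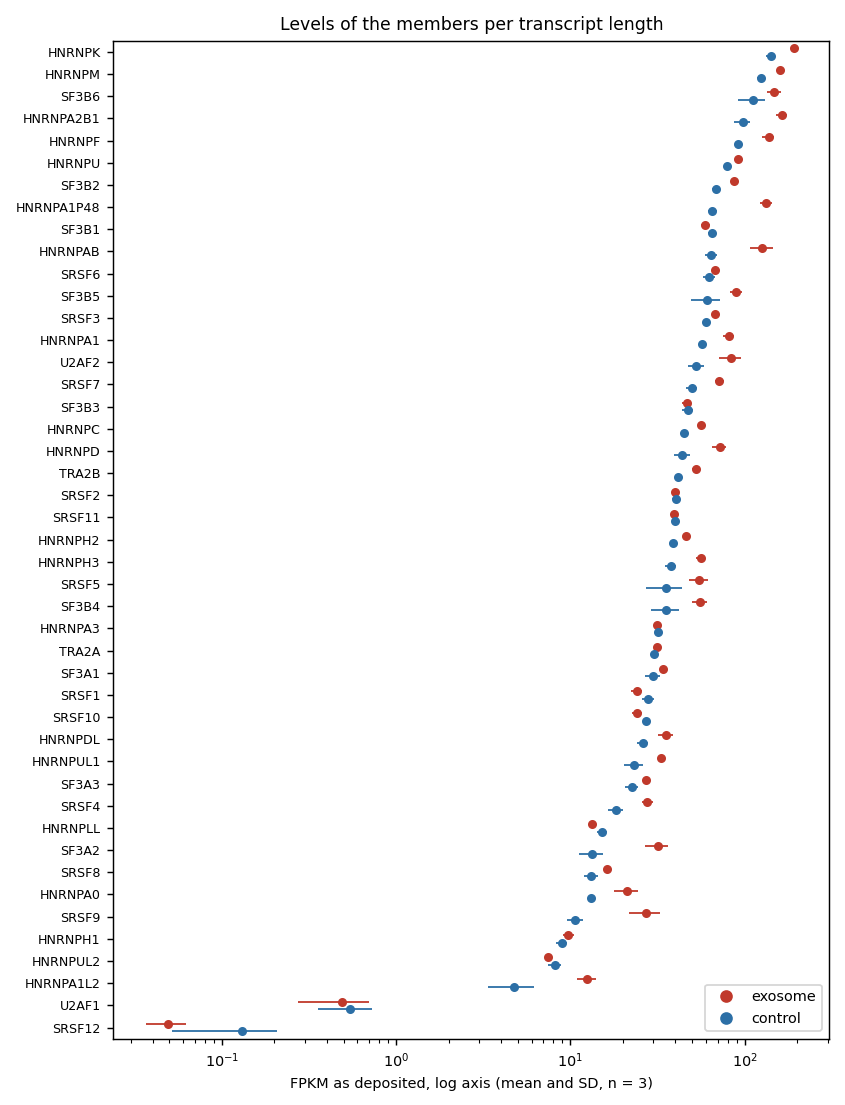
FPKM as deposited by the authors (horizontal axis, logarithmic) for the 45 members, ordered by the control mean; points are group means and lines the SD over 3 libraries. Levels run from HNRNPK, at 193 with exosomes and 141 in control, to SRSF12, at 0.0493 with exosomes and 0.130 in control, and exosome points lie right of control points for most abundant hnRNPs.

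The counts give 1 value per gene and do not separate isoforms. By GENCODE 29, 29 of the 44 tested members (65.9%) have at least 1 annotated transcript subject to nonsense-mediated decay, against 42.6% of 12447 tested protein-coding genes. Transcripts with a retained intron are annotated for 31 members (70.5%), against 57.1% of those genes. All 13 tested SR and Tra2 proteins have an annotated transcript subject to decay. A change in such transcripts and a change in coding ones cannot be told apart in these counts.

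For 11 members a protein-coding gene of the opposite strand starts within 1000 bases of the member's start. SRSF9 starts 57 bases from DYNLL1, a dynein light chain, which also rose (log2 fold change 0.49, adjusted p = 0.000141). SRSF7 starts 40 bases from GEMIN6, a subunit of the SMN complex, which rose as well (0.41, adjusted p = 0.0154). The neighbours of 3 rising hnRNPs fell in the fit without correction: CBX5 beside HNRNPA1 stood at -0.53 (adjusted p = 6.56e-05), CBX3 beside HNRNPA2B1 at -0.25 (adjusted p = 0.00772) and RMI1 beside HNRNPK at -0.32 (adjusted p = 0.0147). In the corrected fit none of the 3 passed, at -0.08, -0.13 and -0.03, while HNRNPA1, HNRNPA2B1 and HNRNPK were higher in both fits. In 2 of the 11 pairs both genes were called in the same direction, and in 3 pairs in opposite directions. Over all tested genes 25.6% were called higher and 26.1% lower, so calls in either direction were common. Whether neighbours went together more or less often than other genes was not tested.

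Other genes of the splicing machinery were grouped by role. Their counts stand beside 25.6% higher and 26.1% lower over all tested genes (18.2% and 17.3% in the corrected fit). Of 11 hnRNPs under other symbols, 8 were higher and 1 lower (median log2 fold change 0.45), and 9 and 0 in the corrected fit. Among them KHSRP (log2 fold change 0.76) and PTBP1 (0.55), the polypyrimidine tract binder, rose. Of 15 other U2 and splice site factors, 7 were higher and 1 lower (9 and 0 in the corrected fit), among them SUGP1 (0.82), CHERP (0.67) and SF1 (0.46), which binds the branch point before the U2 snRNP. Of 7 U1 genes, 3 were higher (SNRNP70 at 0.89 and SNRPA at 0.75 among them) and 1 was lower, against 5 and 0 in the corrected fit. The Sm ring had 4 of 8 higher and none lower, but 3 higher and 1 lower in the corrected fit. The tri-snRNP had 10 of 22 higher and none lower, but 11 higher and 2 lower in the corrected fit, with rises of SART1 (0.81), LSM4 (0.67) and DDX23 (0.61).

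Of the 9 tested kinases and importer of SR proteins, 2 were higher (22.2%) and 4 lower (44.4%). This turned to 3 higher and 1 lower in the corrected fit. CLK3 stood at 0.50 and at 0.82 corrected, while SRPK2 (-0.37, corrected -0.16) and PRPF4B (-0.29, corrected 0.12) lost their calls. SR-related proteins had 6 of 20 higher and 6 lower, 30.0% each, near the 25.6% and 26.1% of all tested genes. In the corrected fit they had 10 higher and 1 lower. RNPS1 (0.67) and ACIN1 (0.58) were higher in both fits, and SREK1IP1 (-0.62, corrected -0.15) was lower in the uncorrected fit alone. The Prp19 complex and catalytic factors had 6 of 23 higher (26.1%) and 5 lower (21.7%), also near those shares. In the corrected fit this list had 4 higher and 1 lower. Its named genes PRPF19 (0.39, corrected 0.05), DDX41 (0.40, corrected 0.10) and AQR (-0.40, corrected 0.03) all lost their calls there. The minor spliceosome had 5 of 8 higher and 2 lower, with SNRNP35 at 1.46, and 1 higher and 0 lower in the corrected fit. Other splicing regulators had 11 of 29 higher and 8 lower (12 and 2 in the corrected fit), with SAFB at 0.76, MBNL2 at -0.58 (corrected -0.22) and PTBP3 at -0.68 (corrected -0.22), which passed in both fits. Exon junction and decay factors had 8 of 15 higher and 2 lower (6 and 1 in the corrected fit), with MAGOH at 1.34, RBM8A at 0.36 and UPF1 at 0.36, the last of which did not pass when corrected (0.11). Differences between these lists and the members were not tested.

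**Figure D5:**
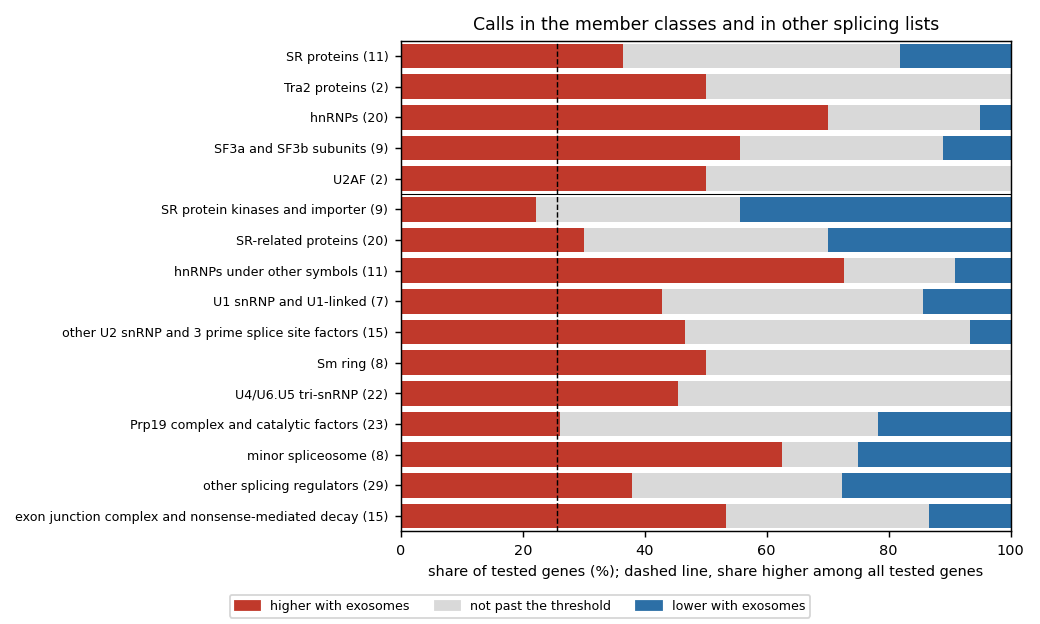
Share of tested genes in percent (horizontal axis) that were higher, not past the threshold or lower with exosomes, for the 5 classes of members (above the line) and 11 other splicing lists, with the number tested in brackets; the dashed line is the share higher among all tested genes, 25.6%. The hnRNPs (14 of 20 higher) and the hnRNPs under other symbols (8 of 11) have the longest bars of rises, and the SR protein kinases and importer the longest of falls, 4 of 9, in this fit without correction (1 of 9 in the corrected fit).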

How the data were processed

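Per the labels' protocols, RNA came from a Trizol extraction and a NEBNext Ultra kit was used for the libraries. The submitters' processing notes name STAR and GRCh38 (hg38). For counting, the program, annotation and strand setting were not given in the sources used here. As for units, the deposited table holds the authors' whole-number read counts per gene, per the file headers. It also holds a size-factor normalised signal, which the authors made from the counts, and the authors' FPKM. The authors' own log2 fold changes and p-values in the deposited table were not used, and the signal columns served only to check that 1 factor per library links them to the counts.

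Counts of the whole table went into edgeR 4.0.16 under R 4.3.3 (robust quasi-likelihood fit on group alone after filterByExpr and TMM), with Benjamini-Hochberg adjustment over 12449 genes and a threshold of 0.05. Printed CPM values are TMM-scaled. Libraries held 11346639 to 13334508 counts. The corrected fit smoothed each library's log2 CPM minus the gene mean on GC content and log2 length (loess, span 0.3) of the longest GENCODE 29 transcript and used the result as an offset. Scripts were tested on simulated data. Libraries of a group differed by a chi-square per gene of 2.29 to 15.6, so none was a repeat of another. The labels do not say that cultures were separate, so that a p-value reflects only how far these samples spread, which may be technical.

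Members and gene lists were chosen with earlier results of these data known. Members given with per-library values are the 10 largest called rises and falls of at least 1 CPM, calls ended by the correction (up to 6), U2AF1, U2AF2 and all SF3 subunits, and from each other list the 3 genes of smallest adjusted p were named, apart from a few not reported here. Per-library values of SRSF4, SRSF5, SRSF7, TRA2B and HNRNPA1 were added after they were seen. PHF5A was named outside these rules, as a subunit of SF3b, with its values known. Alternatives were RLE factors, totals only, other filters, DESeq2 1.42.0, limma-voom (limma 3.58.1), a threshold of 0.01, a replicate block, the correction (also by coding transcripts) and leaving out libraries.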

Additional observations from a re-analysis of the deposited data

How the results depend on the processing

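Between 23 and 31 members were higher under every alternative run, against 25 in the reported fit, and 20 of the 25 were higher in all 17 alternatives that kept the threshold of 0.05. The number of lower members, 4 in the reported fit, was less firm. It was 1 with library totals only, with the GC and length trend removed, with that correction plus the replicate block and at a threshold of 0.01, and 0 with the correction by coding transcripts, which was chosen after seeing the data. Leaving out 1 library gave 2 to 4, and no member was lower in all such fits. The median log2 fold change of the members, 0.27 in the reported fit, was 0.36 with library totals only, with the trend removed and with the trend removed plus the replicate block. The replicate block alone gave 28 higher and 5 lower, and SF3A3 passed with it (adjusted p = 0.0368). Deviations from the group means correlated at 0.066, 0.103 and 0.206 for same-numbered libraries, and at -0.141 to 0.066 for different-numbered ones. The same-numbered value was the highest for each library, by little for number 1. The reported fit did not take the numbers as pairs, and whether they mark a shared batch was not tested. Leaving out replicate 3 of both groups, also chosen after seeing the data, gave 28 higher and 6 lower.

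Signs turned under the correction for some members. Of those called or given by library, with the trend removed the log2 fold changes were 0.039 for HNRNPLL, 0.10 for SF3B1, 0.11 for SF3B3 and 0.019 for SRSF10. With the replicate block added they were 0.038 for HNRNPLL, 0.10 for SF3B1, 0.11 for SF3B3 and 0.018 for SRSF10. By coding transcripts they were 0.069 for HNRNPLL, 0.11 for SF3B1, 0.12 for SF3B3, 0.10 for SRSF10 and -0.024 for SF3B5. Of the other members, none called in the reported fit, HNRNPA3 (0.28), SRSF11 (0.22) and TRA2A (0.10) also turned with the trend removed, and HNRNPA3 (0.31), SRSF11 (0.22), TRA2A (0.13) and HNRNPH1 (-0.03) by coding transcripts. U2AF1, at -0.22 in the reported fit, ranged from -0.41 to 0.095 when 1 library was left out, above 0 without exosome replicate 3 and without control replicate 2 (0.080). Depth limits what can be said of U2AF1 and SRSF12, with 6 to 16 reads per library for U2AF1 and 2 to 8 for SRSF12. Fewer libraries were fitted where 1 was left out, and for the other alternatives the cause of each change was not tested.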
